A study of Mus musculus with 18 samples.

Results

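The response of mouse eosinophils to IFN-γ alone was followed in 6 of the 18 samples of the series, the 3 treated with IFN-γ (IFN-γ 1 to 3) and the 3 unstimulated samples of the same set (unstimulated a to c). The samples were chosen by their treatment, and the comparison asks how IFN-γ, a type 1 cytokine, changes eosinophil transcription across all genes. The cells were washed from the peritoneal cavity of C57BL/6 mice that carry the NJ.1638 *Il5* transgene, purified by removing cells with anti-Thy1.2 and anti-B220 beads, and used above 95% purity by the study's methods. Eosinophils were cultured for 18 h in DMEM with fetal calf serum, either without a stimulus or with IFN-γ at 50 ng/ml, and no IL-5 is listed for the medium. In these mice IL-5 is overproduced and eosinophils accumulate, so the unstimulated cells had matured under excess IL-5 and are not eosinophils of a wild-type mouse. Samples treated with heat-inactivated *E. coli* (3 samples) or with IFN-γ and *E. coli* (3 samples) shared the fit and served for direct tests.

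The counts on genes came to 2419241, 1562034 and 2211861 in unstimulated a to c, and to 1859508, 2006059 and 1654831 in IFN-γ 1 to 3. Spearman correlations across genes were 0.975 to 0.984 between unstimulated samples and 0.977 to 0.981 between IFN-γ samples. Nothing in the labels says whether the replicates were separate animals or cultures. The p-values set each difference between groups against the spread between such replicates, estimated over the 12 samples of the fit. Levels are given as CPM, each count relative to its library size after TMM normalization, and gene positions as GENCODE M21 on GRCm38. Each adjusted p comes from the quasi-likelihood test of edgeR, adjusted over all genes tested by Benjamini-Hochberg, and each SE is approximate, being worked back from the fold and its F value. Genes with an adjusted p under 0.05 were called, and rises and falls are given on the log2 scale. A ceiling of 4096 molecules per gene and sample is inferred from the highest count of each sample, which lies just under the number of 6-base identifiers, since neither labels nor methods state how identifiers were collapsed. Copies that make counts uncertain are noted at some genes below, and transcripts of *Cd274*, *Csf2rb2*, *Cxcr2*, *Gclm*, *H2-DMb1*, *H2-T22*, *H2-T23*, *Ifit3*, *Isg15*, *Ldha*, *Mif*, *Mx1*, *Pgam1*, *Pgk1*, *Pi16*, *Psme2*, *Stat5b*, *Tpi1* and *Trim21* also share near-identical stretches with other genes. Genes that overlap a neighbour on the opposite strand, among them *Stat3*, *Ciita* and *Nlrc5*, are uncertain too, as the strand setting of the counting is not stated.

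IFN-γ binds a receptor of IFNGR1 and IFNGR2, and the kinases JAK1 and JAK2 start a signal that reaches GAS elements in the genome. IRF1, an early product of this signal, acts through ISRE elements on guanylate-binding proteins, antigen presentation and chemokines. Eosinophils carry this receptor and are best known for responses to the type 2 cytokines IL-4, IL-5 and IL-13.

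Of 9883 genes tested, 1541 were upregulated (15.6%) and 1579 downregulated (16%) by IFN-γ, which is the base of what follows. Most changes were small, since 1045 of the upregulated and 888 of the downregulated genes moved by under 2-fold. Changes of 4-fold or more numbered 154 up and 129 down, and changes of 8-fold or more 52 up and 32 down. In 21 of the upregulated genes no unstimulated sample held over 3 counts, and in 26 of the downregulated genes no IFN-γ sample did, so only a lower bound of the fold is known for them. The 3 IFN-γ samples all lay above the 3 unstimulated samples for 2190 genes (22.2%) and all below for 2330 genes (23.6%). Median log2 fold change was 0.73 for the upregulated, -0.93 for the downregulated and -0.03 for all genes tested. Scaling by library totals alone shifted the median log2 fold change by -0.18 and gave 970 genes up and 2448 down, so that 28.4% of the called genes were up in place of 49.4%. DESeq2 called 1453 up and 1061 down (57.8% up). All fold changes below are therefore relative to the TMM scaling.

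**Figure D1:**
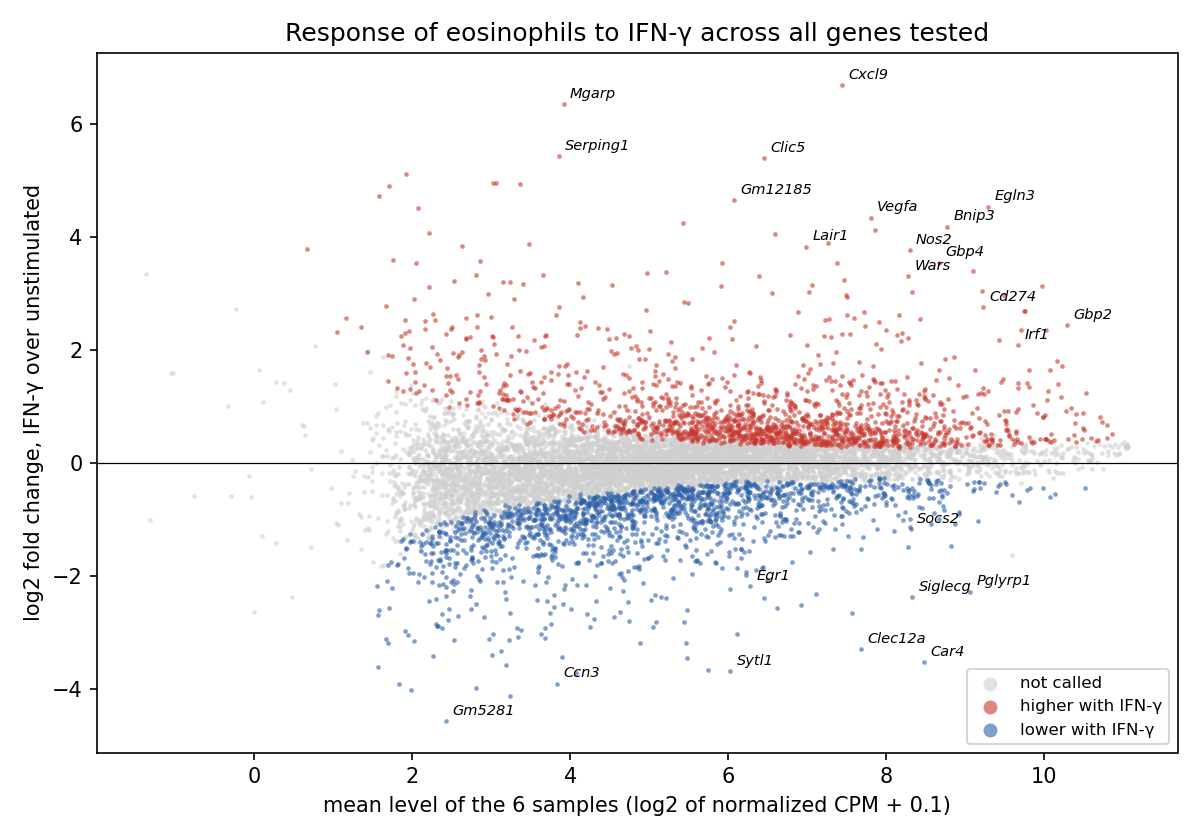
Log2 fold change (IFN-γ over unstimulated) of all 9883 genes tested against their mean level on a log2 axis. Red points (1541) were called higher and blue points (1579) lower at an adjusted p under 0.05. *Cxcl9* had the largest fitted rise of the called genes ranked, for which a minimum mean of 10 CPM was set. *Mgarp*, next at a fitted 6.35, has only a lower bound, of 20.9-fold.

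The receptor and its kinases showed little change at the level of mRNA. *Ifngr1* (ENSMUSG00000020009, chr10:19591949-19610229), the ligand-binding chain, stood at 119.98, 127 and 114 CPM in unstimulated a to c and 110.3, 95.3 and 131 CPM in IFN-γ 1 to 3. The ranges of *Ifngr1* overlapped, and its log2 fold change of -0.10 (SE 0.15) had an adjusted p of 0.654. *Ifngr2*, *Jak1* and *Jak2* were not called either, at log2 fold changes of -0.0075, 0.14 and -0.19, although *Jak2* was called lower under scaling by library totals. *Stat3* (ENSMUSG00000004040, chr11:100885098-100939540), which mediates responses to IL-6 and IL-10, held 208, 196 and 220.1 CPM in unstimulated cells and 462, 488 and 557 CPM after IFN-γ. The lowest IFN-γ value of *Stat3* was above the highest unstimulated one (log2 fold change 1.27, SE 0.12, adjusted p = 1.22e-07). *Stat6*, the transducer of IL-4 and IL-13, rose by 0.49 (adjusted p = 0.00112) and *Stat5b*, which serves IL-5, by 0.70 (adjusted p = 0.0143), the latter call being lost without unstimulated a, without IFN-γ 3 and under scaling by library totals. *Stat4* fell by 1.16 on the log2 scale (adjusted p = 0.0136), a call that was lost without any one of unstimulated b, IFN-γ 2 and IFN-γ 3, and without IFN-γ 1 its log2 fold change was -1.78.

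Of 14 feedback inhibitors tested, 2 were upregulated (15.6% of all genes) and 2 downregulated (16% of all genes). *Socs1* (ENSMUSG00000038037, chr16:10782240-10785536), which blocks JAK activity at the IFN-γ receptor, was at 450.5, 574 and 503 CPM in the unstimulated and 1410.5, 1261 and 1188 CPM in the IFN-γ samples. Every IFN-γ value of *Socs1* was above the unstimulated range (log2 fold change 1.34, SE 0.12, adjusted p = 1.5e-07). *Socs2* (ENSMUSG00000020027, chr10:95385362-95417180), an inhibitor induced through STAT5, was at 458, 446 and 418 CPM before and 238, 174 and 171 CPM after IFN-γ. *Socs2* thus lay lower in all IFN-γ samples (log2 fold change -1.18, SE 0.13, adjusted p = 1.36e-06), although its transcripts have near-identical copies elsewhere in the genome. Against *E. coli*, at 843 ± 52.9 CPM (mean ± SD), *Socs2* was lower with IFN-γ by a log2 fold change of -2.12 (adjusted p = 5.98e-10). *Ptpn2*, a phosphatase of JAK1, rose by 0.98 (adjusted p = 1.51e-05), whereas *Ptpn1*, a phosphatase of JAK2, fell by 0.50 (adjusted p = 0.00113). *Usp18*, the brake of type I interferon signalling, did not move (log2 fold change 0.015), and *Cish* was not called (-0.19, adjusted p = 0.206) except as lower under library totals. *Socs3* was not called with IFN-γ alone (0.57, adjusted p = 0.0814), though it was called higher without the filter on low counts and in a fit of only the 6 compared samples, and it rose when *E. coli* was present too (1.74 over IFN-γ, adjusted p = 2.98e-05).

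Interferon regulatory factors divided into genes called higher and genes not called. *Irf1* (ENSMUSG00000018899, chr11:53770014-53778374) was measured at 289.5, 322 and 324 CPM in unstimulated a to c and at 1315, 1293 and 1352 CPM in IFN-γ 1 to 3. No sample bridged the gap between the groups for *Irf1* (log2 fold change 2.08, SE 0.10, adjusted p = 2.47e-11), which overlaps *Gm17334* on the opposite strand. *Irf8* (ENSMUSG00000041515, chr8:120736358-120756694), a myeloid lineage factor that partners IRF1, went from 18.3, 13.3 and 19.0 CPM to 80.04, 51.8 and 58.2 CPM. The smallest *Irf8* value with IFN-γ was above the largest without (log2 fold change 1.88, SE 0.27, adjusted p = 3.32e-05). *Irf2* rose by 0.81 (adjusted p = 4.6e-06) and *Irf5* by 0.59 (adjusted p = 4.70e-04). *Irf3*, *Irf7* and *Irf9*, which carry the type I interferon response, were not called (-0.08, -0.004 and 0.10). Median log2 fold change of the 7 genes tested was 0.59, beside -0.03 over all genes, with 4 upregulated (15.6% of all genes) and 0 downregulated (16% of all genes) by edgeR (0 at an unadjusted p under 0.05, 0 by DESeq2).

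Guanylate-binding proteins, GTPases that attack the vacuoles of intracellular pathogens, rose together. All 10 that were tested were upregulated, 9 of them by 2-fold or more, and their median was 2.21 beside -0.03 for all genes. *Gbp2* (ENSMUSG00000028270, chr3:142620602-142638008) had the largest gain in level of any gene called in the uncorrected counts, from 395, 351 and 431 CPM to 2074, 1892 and 2383 CPM. Its fold may be compressed, because *Gbp2* reached 89.8% of the inferred ceiling of 4096 molecules (log2 fold change 2.43, SE 0.18, adjusted p = 6.53e-09), and correction for that ceiling gave 3.61. *Gbp4* (ENSMUSG00000079363, chr5:105115767-105139586) was at 59.2, 64.6 and 69.8 CPM in the unstimulated and at 731, 738 and 785 CPM in the IFN-γ samples. The groups of *Gbp4* were far apart (log2 fold change 3.54, SE 0.14, adjusted p = 4.87e-12), but reads of *Gbp4* and *Gbp8* are uncertain because both share near-identical stretches with *Gbp6*, *Gbp10* and *Gbp11*. *Gbp8* rose by 3.53, *Gbp5*, which promotes inflammasome assembly, by 2.21, *Gbp3* by 1.56 and *Gbp7* by 1.10. The smallest rise was that of *Gbp9* (0.73, adjusted p = 5.18e-05).

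Immunity-related GTPases, which mark pathogen vacuoles for the guanylate-binding proteins, rose alongside. *Igtp* (ENSMUSG00000078853, chr11:58199556-58207591) was found at 274, 288 and 263 CPM in unstimulated and 1356, 1296 and 1532 CPM in IFN-γ-treated eosinophils. Each *Igtp* value with IFN-γ was above each value without (log2 fold change 2.34, SE 0.12, adjusted p = 3.67e-11), and the gene overlaps *Irgm2* on the same strand. *Iigp1* (ENSMUSG00000054072, chr18:60376027-60392634) rose from 89.8, 55.8 and 94.2 CPM to 471, 533 and 481 CPM. IFN-γ 1 was the lowest of the treated samples for *Iigp1* and still above the unstimulated maximum (log2 fold change 2.61, SE 0.23, adjusted p = 5.65e-08). *Gm12185* (ENSMUSG00000048852, chr11:48904656-48992226), a relative on chromosome 11, went from 4.099, 5.07 and 6.19 CPM to 125, 125 and 139 CPM. *Gm12185*, named for its rank among all rises, did not overlap between groups (log2 fold change 4.65, SE 0.21, adjusted p = 9.47e-12), but *Tgtp1* overlaps it and *Tgtp2* is nearly identical. *Irgm1* (1.11), *Irgm2* (1.30) and *Ifi47* (1.15) rose less. Of 9 members listed and tested, 8 were upregulated by edgeR and 0 downregulated (0 at an unadjusted p under 0.05 and 0 by DESeq2), with a median of 2.09. In the direct test against *E. coli*, all 9 were higher with IFN-γ, against 14.1% of all genes tested.

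MHC class I presentation rose in most of its genes. *Tap1* (ENSMUSG00000037321, chr17:34187553-34197225), a chain of the peptide transporter, was at 279, 344 and 313 CPM without and at 673, 682 and 725 CPM with IFN-γ. *Tap1* did not overlap between the groups (log2 fold change 1.15, SE 0.11, adjusted p = 2.11e-07), but shares a strand-opposed overlap with *Psmb9*. *Tap2* rose by 1.22 (adjusted p = 3.05e-08), *Tapbp* by 0.85, and the trimming peptidase *Erap1* by 1.10. *Nlrc5* (ENSMUSG00000074151, chr8:94434356-94527272), the transactivator of class I genes, stood at 95.4, 123 and 141 CPM in unstimulated and 295, 318 and 392 CPM in IFN-γ samples. The IFN-γ samples were all higher for *Nlrc5*, with IFN-γ 3 on top (log2 fold change 1.49, SE 0.15, adjusted p = 4.81e-07). Nonclassical class I genes rose modestly, *H2-M3* by 0.75, *H2-T22* by 0.58 and *H2-T23* by 0.58. The classical genes *H2-K1* and *H2-D1* and *B2m* sat at the identifier ceiling, at 99.8% of it for *B2m* with IFN-γ, so a rise in them would be compressed in these counts. After correction for the ceiling *B2m* was called (0.48, adjusted p = 0.0123), against 0.29 (adjusted p = 0.241) before, and it was also called without unstimulated b (0.58). *H2-K1* and *H2-D1* were not called before the correction (0.27 and 0.28) or after it, where their log2 fold changes were smaller (0.18 and 0.16). Among 17 genes of the route 12 were upregulated and 0 downregulated (0 at an unadjusted p under 0.05, 0 by DESeq2), and the median was 0.58.

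The immunoproteasome, which cuts peptides for class I, was upregulated in all 5 genes tested (median 0.96). *Psmb9* (ENSMUSG00000096727, chr17:34181987-34187764) measured 193, 219 and 194 CPM in unstimulated a to c and 395, 389 and 389 CPM in IFN-γ 1 to 3. Its IFN-γ values lay close together, and all exceeded the unstimulated ones (log2 fold change 0.95, SE 0.12, adjusted p = 5.17e-06). *Psmb8* (0.96) and *Psmb10* (1.08), the remaining catalytic subunits, moved by similar amounts, and the activator *Psme2* rose by 1.53. Genes of the constitutive proteasome had a median of 0.26, with 6 of 14 upregulated and 0 downregulated (0 at an unadjusted p under 0.05, 0 by DESeq2).

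MHC class II genes, the route to CD4 T cells, rose as well. *H2-Ab1* (ENSMUSG00000073421, chr17:34257689-34269419) was at 84.95, 62.1 and 53.7 CPM in the unstimulated and 254, 272 and 260.3 CPM in the IFN-γ samples. IFN-γ 1, the lowest treated sample of *H2-Ab1*, was well above unstimulated a, the highest control (log2 fold change 1.96, SE 0.23, adjusted p = 2.18e-06). *H2-Aa* rose by 1.36 (adjusted p = 1.08e-04), *H2-Eb1* by 1.45 and *Cd74*, the invariant chain, by 1.46 (adjusted p = 4.32e-05). *H2-DMa* and *H2-DMb1*, which load the peptide, rose by 1.52 and 1.89. *Ciita* (ENSMUSG00000022504, chr16:10480059-10528418), the master regulator of class II, was low throughout, at 3.73, 4.44 and 2.48 CPM without and 6.16, 3.08 and 4.58 CPM with IFN-γ. Its values overlapped and *Ciita* was not called (log2 fold change 0.40, adjusted p = 0.559). Compared with *E. coli*, where it averaged 0.329 ± 0.57 CPM (mean ± SD), *Ciita* was at least 3.72-fold higher with IFN-γ (adjusted p = 6.01e-04), a bound because no *E. coli* sample held over 3 counts. Since a mixed sample cannot separate the number of cells of a type from the RNA per cell, class II transcripts from few contaminating cells and from many eosinophils cannot be told apart here.

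Ligands and receptors that steer T cells were next. *Cd274* (PD-L1, ENSMUSG00000016496, chr19:29367455-29388095) rose by 2.75 (adjusted p = 1.06e-10) and gained a further 0.58 (adjusted p = 0.00935) when *E. coli* was added. *Pdcd1lg2* (PD-L2) held no more than 3 counts in any control and was at least 4.13-fold higher with IFN-γ. *Lair1* (ENSMUSG00000055541, chr7:4003402-4063204), an inhibitory collagen receptor, was at 19.7, 11.4 and 17.3 CPM without stimulus and at 229, 257 and 226 CPM with IFN-γ. The gap between the groups of *Lair1* was wide (log2 fold change 3.83, SE 0.19, adjusted p = 2.47e-11), although short parts of its transcripts match other genes. *Cd86* (1.03, adjusted p = 6.89e-04) and *Cd40* (0.94, adjusted p = 0.0101) were upregulated, whereas *Cd80* was not called (0.39, adjusted p = 0.121). *Cd53*, a tetraspanin, rose by 1.47 (adjusted p = 1.74e-07). *Cd48* (ENSMUSG00000015355, chr1:171682009-171705258), a ligand of CD2 and CD244, was at 216, 203 and 169 CPM before and 82.3, 90.7 and 88.3 CPM after IFN-γ. All IFN-γ values of *Cd48* were below the unstimulated range (log2 fold change -1.17, SE 0.12, adjusted p = 4.56e-07). *Lgals9* also decreased (-0.44, adjusted p = 0.00471).

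Of 10 CXC chemokines tested, 5 rose and 1 fell, at a median of 0.75. *Cxcl9* (ENSMUSG00000029417, chr5:92321347-92328079), a CXCR3 ligand for T cells, was at 1.86, 1.901 and 5.78 CPM in unstimulated a to c and at 339, 339 and 358 CPM in IFN-γ 1 to 3. The IFN-γ samples of *Cxcl9* were nearly identical, and unstimulated c was the highest of the controls (log2 fold change 6.69, SE 0.30, adjusted p = 9.47e-12). Without unstimulated c the log2 fold change of *Cxcl9* was 7.48. *Cxcl10* (ENSMUSG00000034855, chr5:92346638-92348889), on the same receptor, started at 395, 313 and 447 CPM and reached 686, 695 and 871 CPM. No overlap was seen for *Cxcl10*, but the change was moderate (log2 fold change 0.96, SE 0.25, adjusted p = 0.00675), and *Art3* overlaps it on the opposite strand. *Cxcl11* rose by 1.06 (adjusted p = 0.0157), a call that was lost without unstimulated b and under library totals. *Cxcl3*, a CXCR2 ligand for neutrophils, rose by 3.04 (adjusted p = 2.47e-11) and *Cxcl2* by 0.82 (adjusted p = 9.46e-04), while *Cxcl1* was not called (-0.63, adjusted p = 0.0894). It was called lower in a fit of only the 6 compared samples, without the filter on low counts and under library totals. *Cxcl13* (ENSMUSG00000023078, chr5:95956951-95961068), which attracts B cells, was at 236, 159 and 224 CPM without and 36.4, 32.3 and 39.9 CPM with IFN-γ. *Cxcl13* was lower in every treated sample (log2 fold change -2.52, SE 0.28, adjusted p = 1.65e-06). With *E. coli* added to IFN-γ, *Cxcl1* rose by 4.03 and *Cxcl5* by 4.57, whereas *Cxcl9* stayed (0.04, adjusted p = 0.925).

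Among CC chemokines *Ccl3* (ENSMUSG00000000982, chr11:83647844-83649355), a CCR1 ligand, was at 54.03, 51.3 and 49.6 CPM in the unstimulated and 231, 233 and 269 CPM in the IFN-γ samples. The ranges of *Ccl3* were well apart (log2 fold change 2.24, SE 0.13, adjusted p = 2.68e-10). *Ccl5* rose by 0.84 (adjusted p = 0.00262), whereas *Ccl2* and *Ccl4* were not called (-0.18 and 0.37), although *Ccl4* was called higher without the filter and in a fit of only the 6 compared samples. *Ccl7* fell by 0.95 (adjusted p = 0.0254), a call that was lost with DESeq2 and without any one of the 6 samples other than unstimulated b. *Ccl24* (eotaxin-2), a ligand of CCR3, was not called (0.63, adjusted p = 0.112). Of 12 CC chemokines 3 rose and 3 fell (3 and 1 by DESeq2), with a median of 0.35. Each count was 25% of the 12, beside 15.6% up and 16% down of all genes. Among chemokine receptors *Cxcr4* (ENSMUSG00000045382, chr1:128588199-128592293), which binds CXCL12, rose from 206, 217 and 193 CPM to 367, 463 and 422 CPM. IFN-γ 1 was the lowest treated sample of *Cxcr4* and lay above all controls (log2 fold change 1.02, SE 0.11, adjusted p = 8.08e-07). *Cxcr2* fell by 1.76 (adjusted p = 3.74e-05), and *Ccrl2*, a chemerin-binding receptor, rose by 1.44. *Ccr3*, the eotaxin receptor, was not called at 0.17 (adjusted p = 0.355) but was called higher without unstimulated b, and *Cxcr3*, through which *Cxcl9* acts, had 0 counts in all 6 samples.

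**Figure D2:**
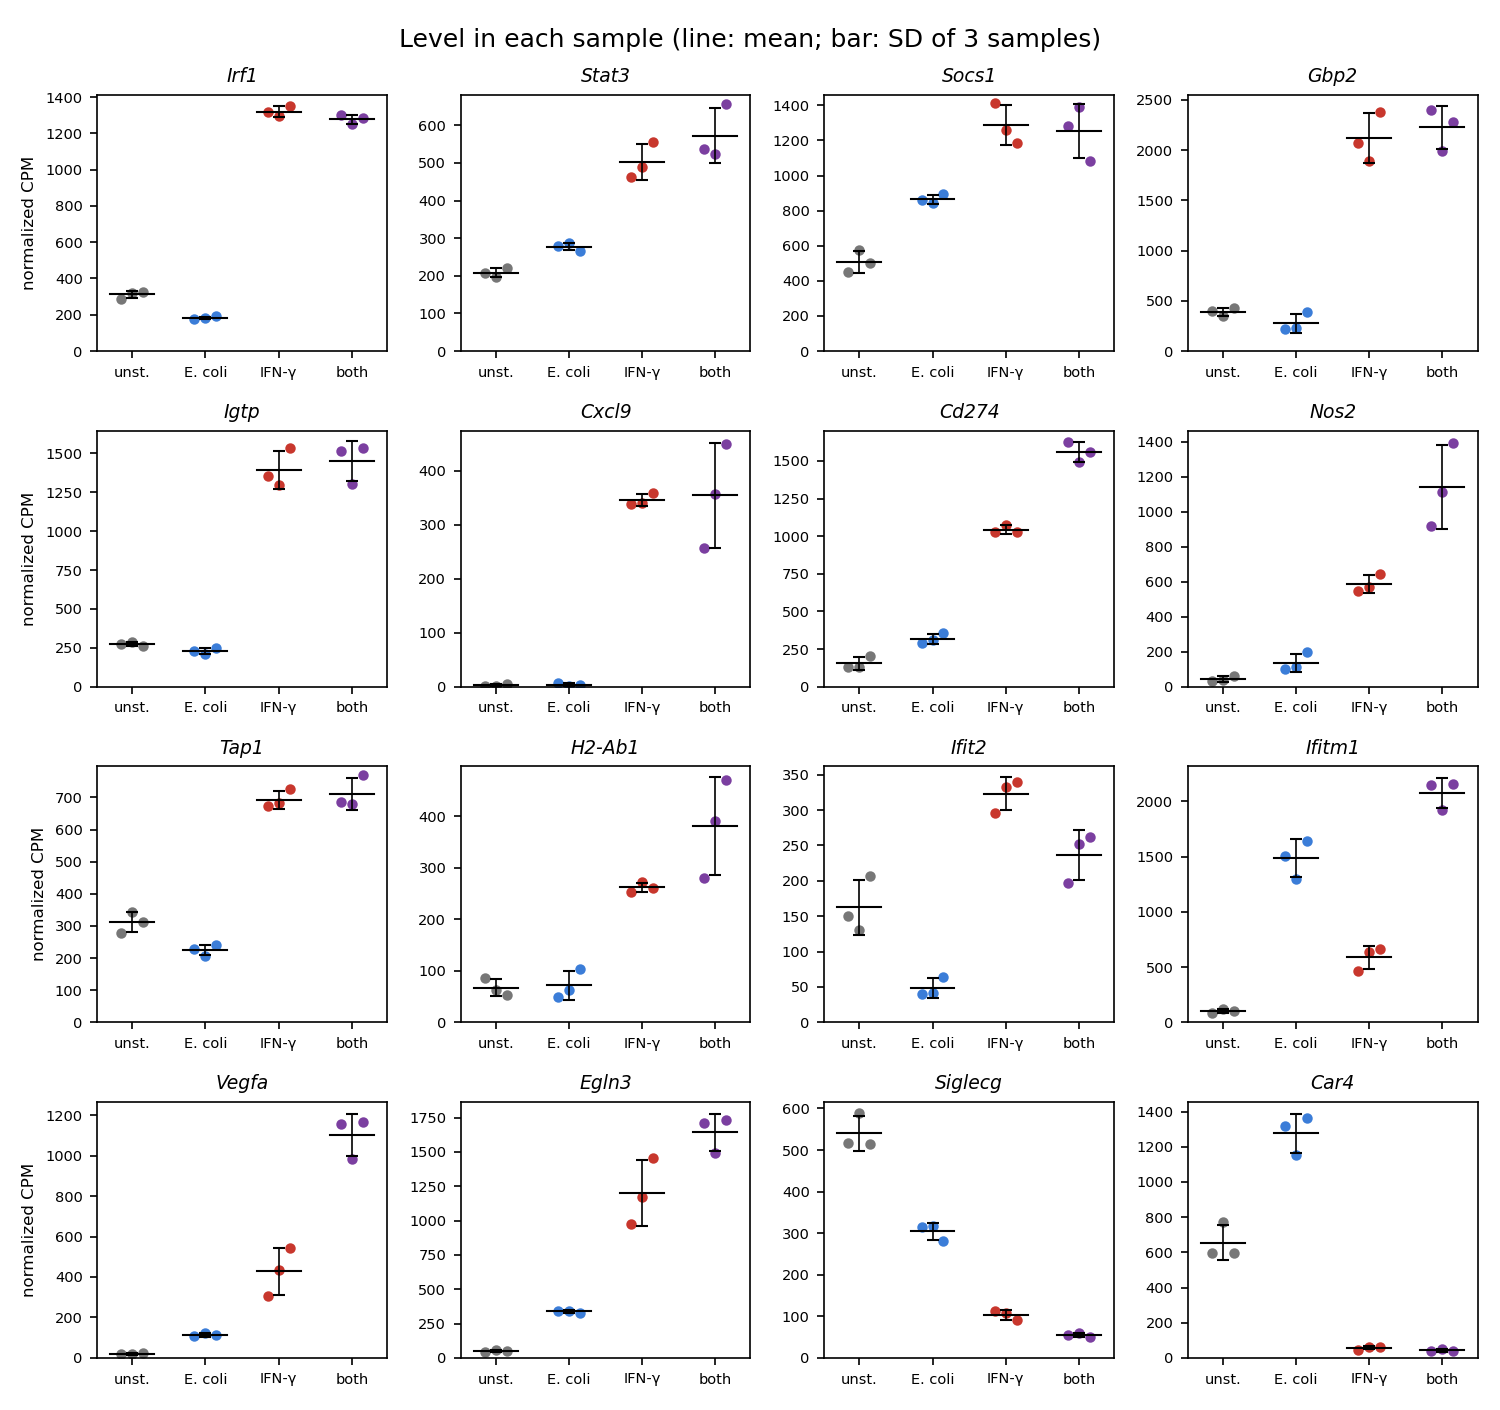
Level of 16 genes (normalized CPM) in each of the 3 samples of 4 groups, with the mean as a line and the SD as a bar. *Cxcl9* had its lowest IFN-γ value in IFN-γ 1, far above unstimulated c, its highest control.

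Cytokine genes responded in part. *Il18bp* (ENSMUSG00000070427, chr7:102014885-102018690), a decoy that limits IL-18 and thereby IFN-γ production, stood at 61.1, 66.5 and 72.7 CPM and, with IFN-γ, at 361, 333 and 385 CPM. IFN-γ 2 was the lowest treated sample of *Il18bp* and far above the controls (log2 fold change 2.43, SE 0.13, adjusted p = 1.06e-10), and *Numa1* overlaps it on the opposite strand. *Il15* (ENSMUSG00000031712, chr8:82331632-82403222), a growth factor of NK and memory T cells, was at 11.9, 5.07 and 11.2 CPM without and 36.4, 41.01 and 34.7 CPM with IFN-γ. Despite the low level, the groups of *Il15* did not touch (log2 fold change 1.92, SE 0.29, adjusted p = 4.9e-05). Its presenting chain *Il15ra* rose in parallel (1.22, adjusted p = 1.04e-05). *Il12b* and *Il33* held no more than 3 counts in any control and were at least 5.61-fold and 4.36-fold higher with IFN-γ. The fitted log2 fold change of *Il12b* was 4.50, and 3.39 without IFN-γ 1, on which its bound leans. It was 3.865 without unstimulated a and 7.01 without unstimulated c, and that of *Il33* went from 4.90 to 6.64 without unstimulated c. *Il1a* (1.15), *Il1b* (1.02), *Il6* (1.14) and *Il27* (1.01) rose about 2-fold, and *Il16* fell by 1.06 on the log2 scale. The type 2 cytokines *Il4*, *Il5* and *Il13* were not called (0.23, 0.05 and 0.61), but *Il13* was called higher without unstimulated c. *Il5* counts include the transgene if its transcript matches, which was not tested. Of 20 cytokines tested, 10 rose and 1 fell with IFN-γ, and 13 were higher with IFN-γ and *E. coli* than with IFN-γ, beside 6.25% of all genes.

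Of 28 cytokine receptors tested, 13 rose and 3 fell (13 and 1 by DESeq2), at a median of 0.32. *Il13ra1* (ENSMUSG00000017057, chrX:36112110-36171259), which pairs with IL-4Rα to bind IL-4 and IL-13, was at 5.96, 5.704 and 7.43 CPM in the controls and at 50.9, 72.8 and 79.1 CPM with IFN-γ. The lowest treated sample of *Il13ra1* was IFN-γ 1, and it exceeded every control (log2 fold change 3.38, SE 0.24, adjusted p = 4.97e-09). *Il4ra* itself was not called (0.19, adjusted p = 0.207), and *Il2rg*, the common γ chain, rose by 1.49 (adjusted p = 1.01e-08). *Il1r2* (ENSMUSG00000026073, chr1:40074079-40125231), the IL-1 decoy receptor, rose from 11.6, 17.1 and 28.9 CPM to 186, 320.4 and 353 CPM. Samples of both groups varied for *Il1r2*, yet the highest control lay far below the lowest treated sample (log2 fold change 3.89, SE 0.25, adjusted p = 1.1e-09). *Il1rap*, the signalling partner of the IL-1 and IL-33 receptors, fell by 1.41 on the log2 scale (adjusted p = 5.49e-04), and *Il1rl1*, the IL-33 receptor, was not called (-0.10) except as lower under library totals. *Il5ra* (ENSMUSG00000005364, chr6:106710357-106749037) was at 208, 154 and 176 CPM before and 151, 123 and 143 CPM after IFN-γ. The *Il5ra* groups did not overlap by a narrow margin (log2 fold change -0.37, SE 0.14, adjusted p = 0.044), and the call was lost without any one of the 6 samples other than unstimulated b, with DESeq2, with its size factors and without the filter on low counts. *Csf2rb2*, a β chain that binds with the IL-3 receptor, rose by 0.89 (adjusted p = 3.1e-05). *Tgfbr2* rose by 1.22 (adjusted p = 8.69e-06).

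Of 46 genes best known from the type I interferon response, 14 were upregulated and 11 downregulated (14 and 9 by DESeq2), and the median was 0.11, which became -0.07 when libraries were scaled by totals. *Ifit2* (ENSMUSG00000045932, chr19:34550694-34576419) was at 151, 131 and 206 CPM in the unstimulated and 296, 333 and 339 CPM in the IFN-γ samples. *Ifit2* was the only IFIT gene called higher, with all treated samples above the controls (log2 fold change 0.98, SE 0.17, adjusted p = 1.80e-04). *Ifit1* (0.16), *Ifit3* (-0.012), *Isg15* (0.04) and *Mx1* (0.10) were not called. *Oas2* (ENSMUSG00000032690, chr5:120730333-120749853), a sensor of double-stranded RNA, had 157, 153 and 158 CPM without stimulus and 75.0, 120.5 and 106 CPM with IFN-γ. All *Oas2* values with IFN-γ were below the controls (log2 fold change -0.64, SE 0.15, adjusted p = 0.00245). *Epsti1* fell by 1.30 (adjusted p = 2.03e-06), *Ifi27l2a* by 0.85 and *Bst2* by 0.52 on the log2 scale. *Parp14* (0.73), *Dtx3l* (0.80) and *Trim21* (0.89), which attach ADP-ribose or ubiquitin to proteins, were among those that rose. In the direct test against *E. coli*, 28 of the 46 were higher with IFN-γ (14.1% of all genes), at a median of 0.64. Against unstimulated cells the median was only 0.11 and 14 rose, so the 28 are not a count of rises over unstimulated cells. *Ifitm1* (ENSMUSG00000025491, chr7:140967221-140969825), a restriction factor at the cell surface, rose from 81.97, 124 and 99.5 CPM to 466, 634 and 664 CPM. The gap between the groups was wide for *Ifitm1* (log2 fold change 2.54, SE 0.16, adjusted p = 1.1e-09), whose copy *Gm7676* is nearly identical, and *Ifitm3* was not called (-0.14), although it was called lower under library totals and after the ceiling correction. Of 4 IFITM genes tested, 1 rose and 1 fell, each by 2-fold or more, at a median of -0.11. *Ly6a* (ENSMUSG00000075602, chr15:74994877-74998031), the stem cell antigen Sca-1, was at 252, 269 and 296 CPM and reached 842, 782 and 914 CPM. All IFN-γ values of *Ly6a* were above the controls (log2 fold change 1.63, SE 0.17, adjusted p = 7.89e-07), with a stretch shared with *Ly6c1*. None of 10 PYHIN genes, sensors of DNA, was called with edgeR, where 1 was higher at an unadjusted p under 0.05 and DESeq2 called 0 (median 0.24).

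**Figure D3:**
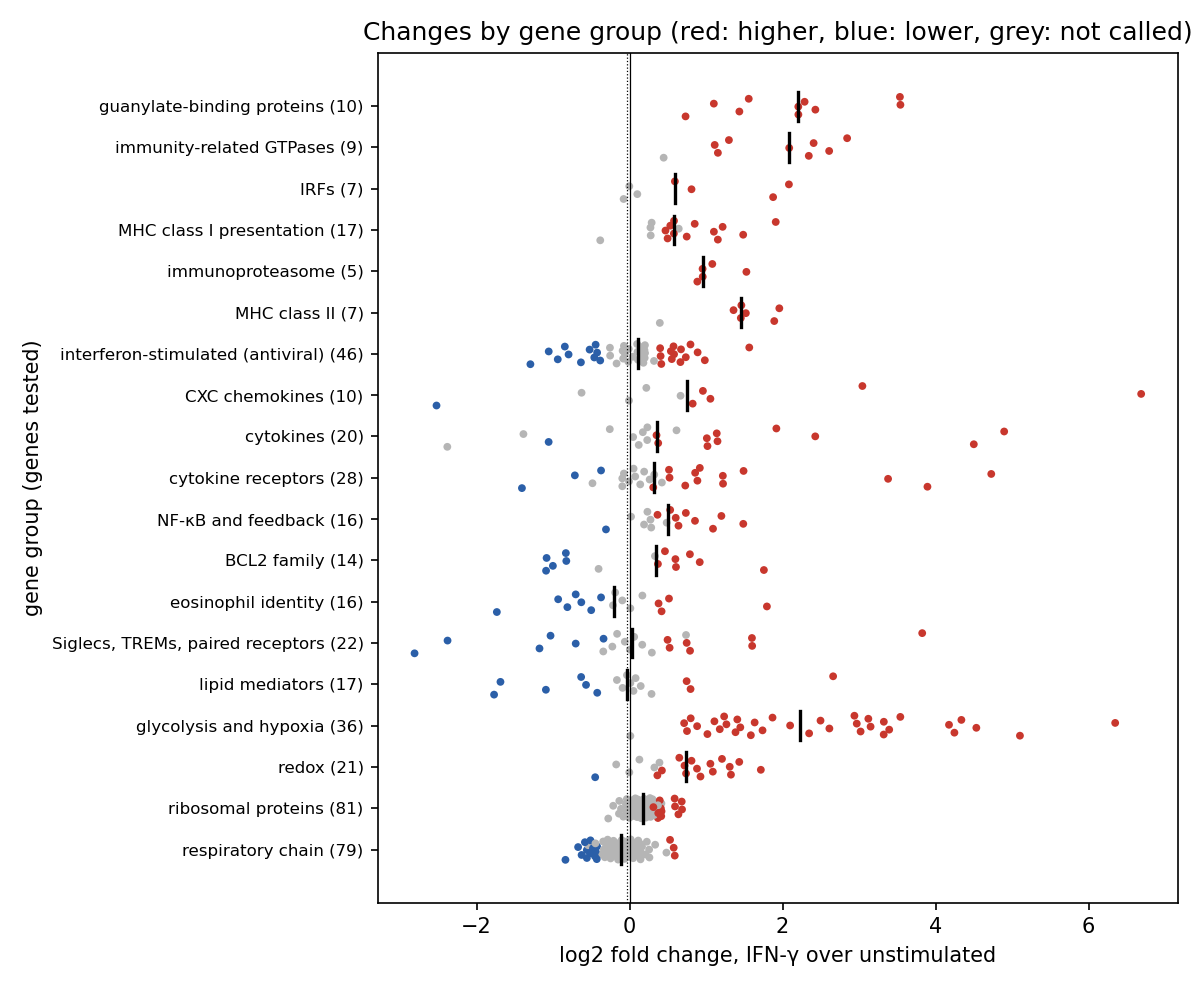
Log2 fold change (IFN-γ over unstimulated) of each gene tested in 19 groups, with the number tested in brackets, the group median as a black bar and the median of all genes (-0.03) as a dotted line. All 10 guanylate-binding proteins lie to the right, and the 46 antiviral genes lie on both sides of 0.

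Genes of cell death were followed as well. *Casp1* (ENSMUSG00000025888, chr9:5298517-5307265), the inflammasome protease, was at 216, 240.2 and 216 CPM without and 479, 479 and 529 CPM with IFN-γ. The groups of *Casp1* were apart (log2 fold change 1.15, SE 0.11, adjusted p = 3.92e-07). *Casp4* (0.69), a sensor of cytosolic LPS, rose too. *Bcl2a1a* (ENSMUSG00000102037, chr9:88956900-88962419), an antiapoptotic gene of granulocytes, was at 589, 704 and 618 CPM in the controls and 317, 302 and 276 CPM with IFN-γ. *Bcl2a1a* fell in every treated sample (log2 fold change -1.09, SE 0.11, adjusted p = 6.61e-07), with uncertain assignment among its copies *Bcl2a1b* and *Bcl2a1d*, which also fell (-0.83 and -1.09). *Bcl2l1* fell by 0.83 (adjusted p = 3.38e-04) and *Bcl2* by 1.00 (adjusted p = 0.00551). *Mcl1*, by contrast, rose by 0.61 (adjusted p = 0.00139). The BH3-only genes *Pmaip1* (1.76) and *Bcl2l11* (0.79) rose. Of 14 BCL2 family genes 7 rose and 5 fell (5 and 5 by DESeq2).

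Antimicrobial enzymes came next. *Nos2* (ENSMUSG00000020826, chr11:78920787-78960254), the inducible nitric oxide synthase, stood at 30.6, 38.7 and 59.9 CPM in unstimulated a to c and 549.7, 568 and 643 CPM in IFN-γ 1 to 3. Unstimulated c was the highest control of *Nos2* and lay far below every treated sample (log2 fold change 3.76, SE 0.25, adjusted p = 1.5e-09). *Slc7a2*, an arginine transporter, rose by 1.40 (adjusted p = 6.52e-05), and *Acod1*, the source of itaconate, by 2.21 (adjusted p = 1.65e-06). *Wars* (ENSMUSG00000021266, chr12:108860030-108894174), the tryptophanyl-tRNA synthetase, was at 46.6, 66.5 and 59.5 CPM without and at 576, 550.01 and 559.8 CPM with IFN-γ. The IFN-γ values of *Wars* were all far above the controls (log2 fold change 3.30, SE 0.14, adjusted p = 5.41e-12), while the glycyl and histidyl synthetase genes *Gars* and *Hars* were not called (-0.011 and -0.16). Of 31 targets of ATF4 and cytosolic tRNA synthetase genes tested, 12 rose and 2 fell (11 and 1 by DESeq2), at a median of 0.42. *Ido1*, which degrades tryptophan, held no more than 5 counts in any control (2.34, adjusted p = 0.00148), and the log2 fold change was 2.96 without unstimulated a. *Nampt*, an enzyme of NAD synthesis, rose by 2.68 (adjusted p = 9.37e-12). *Lcn2* fell by 1.30 on the log2 scale (adjusted p = 8.97e-04).

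Of 20 transcription factors of the immediate early and KLF families, 10 rose and 3 fell, at a median of 0.27. *Klf4* (ENSMUSG00000003032, chr4:55527143-55532466), a regulator of myeloid polarization, was at 4.099, 5.07 and 3.304 CPM before and 29.7, 36.9 and 27.5 CPM after IFN-γ. IFN-γ 3 held the lowest treated value of *Klf4*, and it exceeded all controls (log2 fold change 2.94, SE 0.30, adjusted p = 5.52e-07). *Atf3* rose by 2.52 (adjusted p = 1.41e-07), *Egr2* by 2.19 (adjusted p = 4.8e-08) and *Maff* by 3.86. *Egr1* (ENSMUSG00000038418, chr18:34859823-34864984), an early growth response factor, was at 142, 116 and 123 CPM in the controls and 27.99, 25.1 and 30.7 CPM with IFN-γ. *Egr1* was lower in all treated samples (log2 fold change -2.19, SE 0.16, adjusted p = 6.52e-09), and *Fos* fell by 0.96 on the log2 scale. NF-κB genes rose in 9 of 16 cases and fell in 1 (9 and 0 by DESeq2), at a median of 0.51. *Tnfaip3* (A20, 1.20, adjusted p = 2.5e-06), *Bcl3* (1.49) and *Nfkbid* (1.09) were the largest of these rises. Of the same 16 genes, 11 were higher with IFN-γ and *E. coli* than with IFN-γ (6.25% of all genes).

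Genes that define eosinophils mostly held or fell. *Siglecf* (ENSMUSG00000039013, chr7:43351341-43359531), the inhibitory receptor used to gate mouse eosinophils, stood at 952, 1167 and 942 CPM in unstimulated and 654, 534 and 689.9 CPM in treated samples. Each treated *Siglecf* value was below each control value (log2 fold change -0.70, SE 0.12, adjusted p = 1.77e-04). *Prg2*, the major basic protein, fell by 0.81 (adjusted p = 0.00351) and *Ear6* by 0.93 (adjusted p = 0.001). *Epx*, the eosinophil peroxidase, held at most 4 counts in any of the 6 samples and was not tested. *Cebpe*, a factor of granule gene expression, fell by 0.63 (adjusted p = 0.00178). *Gata1*, the lineage factor of eosinophils, rose by 0.38 (adjusted p = 0.0103), a call that was lost without unstimulated a and under library totals. *Cd9* (ENSMUSG00000030342, chr6:125460266-125494791), a tetraspanin of eosinophils, rose from 359.6, 544 and 635 CPM to 1670.2, 1585 and 2079 CPM. No *Cd9* value overlapped (log2 fold change 1.80, SE 0.17, adjusted p = 2.1e-07), and correction for the identifier ceiling raised the log2 fold change to 2.47, with *Gm26728* on the opposite strand. Of 16 identity genes tested 4 rose and 7 fell, at a median of -0.20.

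Of 18 lectins and scavenger receptors tested, 7 rose and 3 fell (38.9% and 16.7%, beside 15.6% and 16% of all genes). Of 20 adhesion genes 5 rose and 3 fell (25% and 15%), at a median of -0.09, which is near the shares of all genes. *Siglecg* (ENSMUSG00000030468, chr7:43408204-43418358), a Siglec with an ITIM, was at 516, 589 and 515 CPM without and 113, 107 and 90.2 CPM with IFN-γ. IFN-γ 1 was the highest treated sample of *Siglecg* and lay below all controls (log2 fold change -2.38, SE 0.12, adjusted p = 2.66e-11), with a stretch shared with *Gm29791*. *Siglece* fell by 2.81 (adjusted p = 1.3e-06) and *Cd33* by 1.18 (adjusted p = 3.12e-04). *Clec12a* (ENSMUSG00000053063, chr6:129342691-129365303), an inhibitory receptor for uric acid crystals, was at 418, 416 and 287 CPM in the controls and 50.9, 32.8 and 28.8 CPM after IFN-γ. Unstimulated c was the lowest control of *Clec12a* and lay above every treated sample (log2 fold change -3.31, SE 0.19, adjusted p = 2.23e-10). *Clec4n* (dectin-2) rose by 2.27 (adjusted p = 4.82e-10), the scavenger receptor *Marco* by 1.04 and *Cd36* by 1.05. *Itgb3* fell by 1.52 (adjusted p = 6.78e-07) and *Itga2* by 2.43 (adjusted p = 4.99e-07). *Icam1* rose by 1.58 (adjusted p = 9.89e-07), with *Gm47079* on the opposite strand. Among 22 Siglecs, TREMs and paired receptors 7 rose and 6 fell, and their median of 0.03 turned to -0.14 under scaling by library totals.

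Lipid mediator genes were split. *Ptgs2* (ENSMUSG00000032487, chr1:150100031-150108227), the inducible cyclooxygenase, rose from 39.1, 22.2 and 33.5 CPM to 202, 211 and 203 CPM. Unstimulated a, the highest control of *Ptgs2*, was far below the treated samples (log2 fold change 2.66, SE 0.20, adjusted p = 1.16e-08). *Ptgs1* (-0.63) and *Alox5* (-0.57), which make prostanoids and leukotrienes, fell. *Ltb4r1*, the receptor of leukotriene B4, fell by 1.09 (adjusted p = 4.62e-06), and the prostaglandin E2 receptors *Ptger2* and *Ptger4* by 1.77 and 1.69 on the log2 scale. *Alox15* was not called (0.01, adjusted p = 0.968), but was called lower after the ceiling correction (-0.37, adjusted p = 0.0221). Of 17 genes 3 rose and 6 fell (17.6% and 35.3%, beside 15.6% and 16% of all genes). Their median of -0.03 was 0.003 with DESeq2.

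Glycolysis and hypoxia genes rose broadly. Of 36 tested, 35 were upregulated and 0 downregulated (0 at an unadjusted p under 0.05, 0 by DESeq2), 31 rose by 2-fold or more, and the median was 2.22 beside -0.03 for all genes. *Egln3* (ENSMUSG00000035105, chr12:54178981-54203860), a prolyl hydroxylase that marks HIF-1α for degradation, was at 45.1, 57.7 and 53.7 CPM in unstimulated and 973, 1171 and 1456 CPM in IFN-γ samples. IFN-γ 1 was the lowest treated sample of *Egln3* and IFN-γ 3 the highest (log2 fold change 4.53, SE 0.16, adjusted p = 1.15e-12). *Vegfa* (ENSMUSG00000023951, chr17:46016993-46032369), the angiogenic factor, went from 18.3, 18.4 and 26.02 CPM to 307, 433 and 541 CPM. The treated samples of *Vegfa* were ordered in the same way and all lay above the controls (log2 fold change 4.34, SE 0.20, adjusted p = 1.34e-11). *Bnip3* (ENSMUSG00000078566, chr7:138890836-138909519), a mitophagy receptor, was at 45.1, 44.4 and 47.9 CPM and rose to 616, 832 and 1044 CPM. *Bnip3* did not overlap (log2 fold change 4.18, SE 0.18, adjusted p = 5.41e-12), but 4 near-identical copies and *Gm45507* on the opposite strand make its counts uncertain. In 30 of the 35 upregulated genes IFN-γ 1 held the lowest treated value, and in 28 IFN-γ 3 held the highest. *Slc2a1* (ENSMUSG00000028645, chr4:119108711-119137983), the glucose transporter GLUT1, was at 57.4, 85.6 and 76.4 CPM without and 336, 378 and 512 CPM with IFN-γ. The lowest treated *Slc2a1* value was far above the controls (log2 fold change 2.496, SE 0.19, adjusted p = 7.61e-09), with *Gm12868* on the opposite strand. *Pfkl* rose by 3.02, *Pfkfb3*, which drives flux through phosphofructokinase, by 2.94, *Tpi1* by 2.97 and *Ldha* by 1.38. *Pgk1*, *Pgam1* and *Ero1l* neared the identifier ceiling with IFN-γ, and correcting for it moved their log2 fold changes from 2.35 to 3.10, from 1.24 to 2.11 and from 3.12 to 4.01. *Pkm* and *Aldoa*, at 90.1% and 89.6% of the ceiling with IFN-γ, moved from 0.80 to 1.47 and from 0.71 to 1.33. Both therefore rose by 2-fold or more only after the correction. *Mif* rose by 3.39 (adjusted p = 9.47e-12). *Hif1a* itself rose by 0.75 (adjusted p = 1.80e-04). In the direct tests 34 of the 36 were higher with IFN-γ than with *E. coli* (14.1% of all genes), and 12 were higher with IFN-γ and *E. coli* than with IFN-γ (6.25% of all genes), among them *Ndrg1* (1.67) and *Vegfa* (1.37, adjusted p = 9.46e-06).

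**Figure D4:**
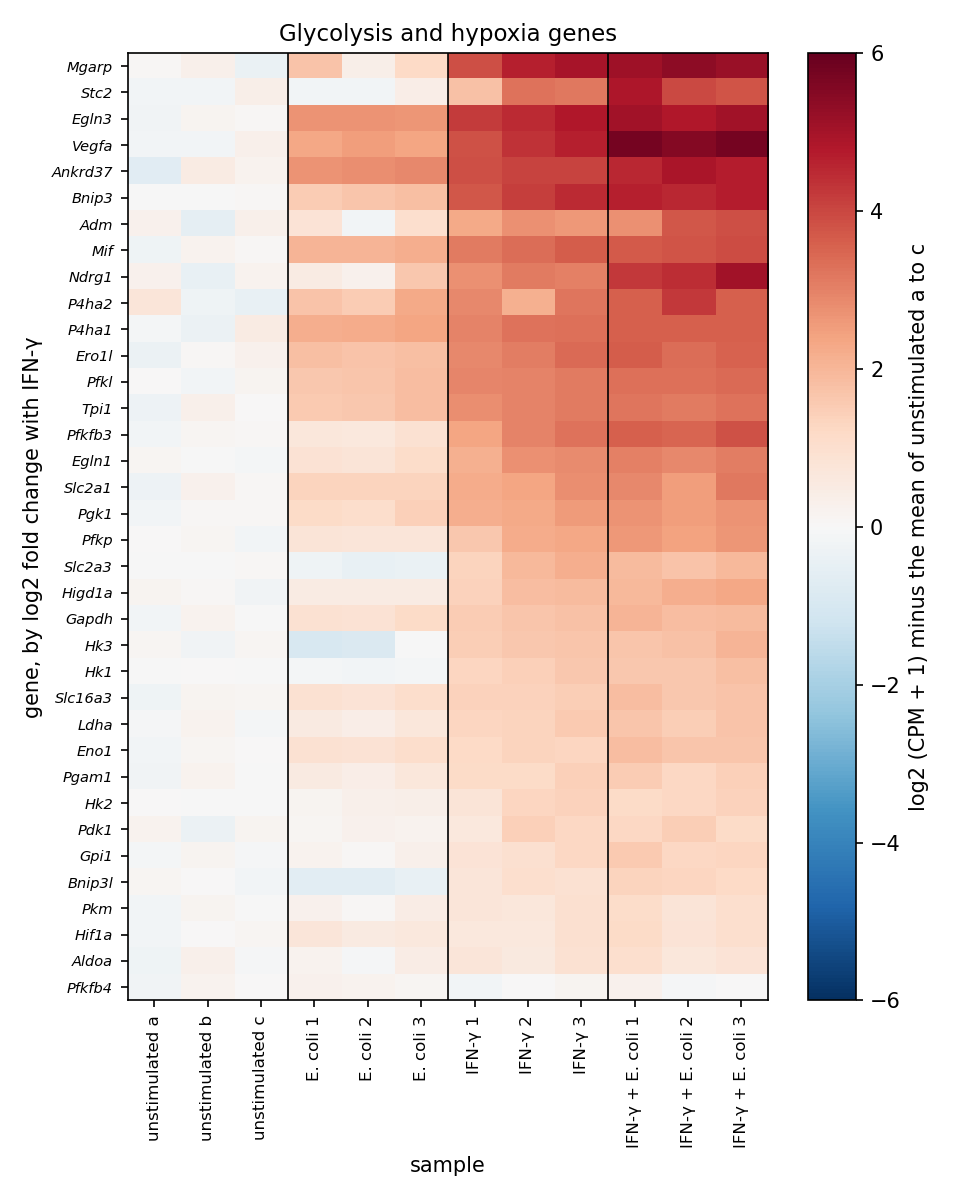
Levels of the 36 glycolysis and hypoxia genes in the 12 samples of 4 groups, as log2 (CPM + 1) minus the mean of unstimulated a to c, with genes ordered by log2 fold change. All but *Pfkfb4* were called higher in IFN-γ 1 to 3.

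Redox genes rose with them. *Prdx1*, a peroxiredoxin with near-identical copies, rose by 1.72 (adjusted p = 3.62e-07), or by 2.43 after the ceiling correction. *Hmox1* (ENSMUSG00000005413, chr8:75093621-75100589), heme oxygenase 1, was at 442, 409 and 539 CPM before and 1093, 1104 and 1292 CPM after IFN-γ. IFN-γ 1 held the lowest treated value of *Hmox1*, above all controls (log2 fold change 1.32, SE 0.17, adjusted p = 8.79e-06). *Txnrd1* rose by 1.31, *Srxn1* by 1.43 and *Gclm* by 1.09, while *Nfe2l2*, which codes for their regulator NRF2, was not called (0.13). Of 21 redox genes 15 rose and 1 fell, at a median of 0.74. *Gpx1*, the gene that fell, changed by -0.45, or by -1.21 after the ceiling correction, and the uncorrected call was lost without unstimulated b or any one of the IFN-γ samples. Lysosomal genes rose in 13 of 25 cases and fell in 4 (median 0.38), with *Lgmn* (1.15) and *Mitf* (1.37) the largest rises and *Grn* (-0.61) among the falls. *Xbp1* fell by 0.91 (adjusted p = 1.95e-05), and genes of the endoplasmic reticulum stress response had a median of 0.16, which was -0.012 under scaling by library totals. Nuclear genes of oxidative phosphorylation, 79 in number, rose in 3 and fell in 13 cases (3 and 8 by DESeq2, median -0.11), where 16% of all genes fell. Of the mitochondrially encoded subunits, which are not in that list, *mt-Atp8* (0.75), *mt-Co3* (0.44) and *mt-Nd3* (0.92) were called higher. The call of *mt-Co3* was lost under library totals and without any one of the 6 samples other than unstimulated b and IFN-γ 2. *mt-Co1*, *mt-Co2* and *mt-Nd1* were called higher after the ceiling correction (0.48, 0.48 and 0.33), without the filter on low counts and without unstimulated b. *mt-Co1* and *mt-Co2* stood at 97.5% and 93.0% of the ceiling in unstimulated and 98.6% and 95.1% in IFN-γ samples. *mt-Atp6*, *mt-Cytb*, *mt-Nd2* and *mt-Nd4* were not called before the correction (0.29, 0.29, 0.20 and 0.27) or after it (0.30, 0.30, 0.04 and 0.20). *mt-Co1*, *mt-Co2*, *mt-Co3* and *mt-Nd3* have near-identical copies in other genes. Ribosomal protein genes, 81 in number, rose in 12 cases, or 14.8%, beside 15.6% of all genes. They fell in 0 cases by edgeR (0 at an unadjusted p under 0.05, 0 by DESeq2), beside 16% of all genes.

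Beyond these groups, genes were picked by the size of their change once the values had been seen. *Serping1* (ENSMUSG00000023224, chr2:84765387-84775444), the C1 inhibitor of complement and contact activation, was at 0.373, 0 and 1.24 CPM without and 17.9, 35.9 and 30.7 CPM with IFN-γ. No control sample held over 3 counts of *Serping1*, so the rise was at least 19.9-fold (adjusted p = 2.07e-07). *Serpina3g* and *Serpina3f*, protease inhibitors with near-identical sequences, rose at least 11.1-fold and 11.2-fold. *Rn7sk*, a small nuclear RNA with close copies, rose at least 13.95-fold. *Tgm2* (ENSMUSG00000037820, chr2:158116402-158146436), tissue transglutaminase, gained from 183, 216 and 304 CPM to 1371, 1429.6 and 1708 CPM. The groups of *Tgm2* lay apart (log2 fold change 2.68, SE 0.16, adjusted p = 4.09e-10), the ceiling correction raised the log2 fold change to 3.27, and *Rprd1b* overlaps it on the opposite strand. The largest falls included *Ccn3* (-3.91), a matricellular protein, *Sytl1* (-3.69), a granule tethering protein, and *Adra2a* (-3.66), an adrenergic receptor. *Spns3* (-3.46), a lipid transporter homologue, and *Inpp4b* (-3.44), a lipid phosphatase, followed, while *Pi16* fell by 3.73 on the log2 scale. *Gm10384*, a long noncoding RNA, and *Kctd12b* held no more than 3 counts in any treated sample and fell at least 9.67-fold and 8.42-fold. *Car4* (ENSMUSG00000000805, chr11:84957786-84966044), a membrane carbonic anhydrase, was at 596, 771 and 599 CPM in the controls and 47.02, 59.5 and 63.4 CPM with IFN-γ. Every treated sample of *Car4* was far below every control (log2 fold change -3.53, SE 0.16, adjusted p = 9.37e-12), whereas with *E. coli* it averaged 1276 ± 111 CPM (mean ± SD) and IFN-γ was lower by -4.49 (adjusted p = 5.65e-13). *Pglyrp1* (ENSMUSG00000030413, chr7:18871331-18890459), a bactericidal granule protein, had the largest loss in level of any gene called, in counts not corrected for the identifier ceiling, from 936, 1044 and 681 CPM to 195, 186 and 163 CPM. *Pglyrp1* did not overlap between the groups (log2 fold change -2.29, SE 0.15, adjusted p = 1.9e-09). *S100a6* (-1.47), *Cnn2* (-1.04) and *Rgs2* (-0.56) were also among the largest losses in level.

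Set directly against *E. coli*, IFN-γ gave 1393 higher (14.1%) and 1132 lower genes (11.5%). *Irf1* averaged 184 ± 6.26 CPM with *E. coli* (mean ± SD) and was higher with IFN-γ by 2.84 (adjusted p = 6.66e-13). *Gbp8* (5.98), *Lair1* (5.25) and *Wars* (3.73) differed more, and each was called. *Trem1* (ENSMUSG00000042265, chr17:48232768-48246924), which amplifies responses to bacteria, averaged 221 ± 6.67 CPM with *E. coli* and was lower with IFN-γ by -3.13 (adjusted p = 3.78e-12). *Il13* (-3.72) and *Cxcl5* (-3.77) were likewise lower with IFN-γ than with *E. coli*, as was *Il19*, at least 36.2-fold, with no more than 3 counts in any IFN-γ sample. When *E. coli* was added to IFN-γ, 618 genes were higher (6.25%) and 591 lower (5.98%) than with IFN-γ. *Il6* rose by 3.48 and *Il1b* by 3.43 in that step (adjusted p = 3e-10 and 2.62e-09), while *Irf1* (-0.05) and *Igtp* (0.06) were not called.

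Promoter sequences of 300 bases, 250 before and 50 after the RefSeq transcription start on GRCm38.p6, were matched for 7575 of the genes tested, some with several promoters. A GAS motif (TTCNNNGAA) was present in some promoter of 38 of 359 genes upregulated by 2-fold or more (10.6%), of 41 of 534 genes downregulated as much (7.68%) and of 619 of all 7575 (8.17%). An ISRE core, a pair of GAAA half-sites on the same strand with 2 bases between them, sought like the GAS motif on either strand of the promoter, was present in 24 (6.69%), 22 (4.12%) and 327 (4.32%) of these genes. Both motifs, in the same or in different promoters, occurred in 10 (2.79%), 3 (0.562%) and 49 genes (0.647%). All 5 guanylate-binding protein genes matched held the ISRE core and 2 held a GAS motif, whereas of 32 glycolysis and hypoxia genes 1 held the ISRE core and 0 a GAS motif. Of 36 genes of the type I interferon list 15 held the ISRE core and 8 a GAS motif, of 5 immunoproteasome genes 1 and 1, and of 4 MHC class II genes 0 and 0. In the GTPase genes *Igtp*, *Irgm2*, *Tgtp2* and *Gm12185* the GAS motif began 11 bases before the ISRE core. These 4 are given with *Gbp2*, which holds the ISRE core alone, and the upstream of 2 *Irf1* promoters, which holds a GAS motif alone, and motifs are in capitals. They were chosen after their motifs were seen, and the presence of a motif was not tested for function.
Igtp promoter, chr11:58199306-58199605, plus strand: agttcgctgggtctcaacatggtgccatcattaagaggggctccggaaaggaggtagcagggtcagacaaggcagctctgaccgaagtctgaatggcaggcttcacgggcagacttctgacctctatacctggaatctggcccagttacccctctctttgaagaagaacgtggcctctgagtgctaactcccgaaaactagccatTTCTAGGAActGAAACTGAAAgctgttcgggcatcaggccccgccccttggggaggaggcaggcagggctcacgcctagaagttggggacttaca
Irgm2 promoter, chr11:58214727-58215026, plus strand: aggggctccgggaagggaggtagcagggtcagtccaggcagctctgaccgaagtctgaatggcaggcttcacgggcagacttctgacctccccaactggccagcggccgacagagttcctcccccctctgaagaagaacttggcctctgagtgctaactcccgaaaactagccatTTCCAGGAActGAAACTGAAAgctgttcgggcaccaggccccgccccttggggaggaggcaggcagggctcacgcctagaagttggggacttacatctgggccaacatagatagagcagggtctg
Tgtp2 promoter, chr11:49064163-49064462, minus strand: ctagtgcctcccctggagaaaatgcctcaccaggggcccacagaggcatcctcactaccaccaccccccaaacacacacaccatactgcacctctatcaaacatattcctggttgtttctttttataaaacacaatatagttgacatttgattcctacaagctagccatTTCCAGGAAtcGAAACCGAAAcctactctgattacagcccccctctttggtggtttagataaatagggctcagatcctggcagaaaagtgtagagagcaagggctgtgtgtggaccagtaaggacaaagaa
Gm12185 promoter, chr11:48927133-48927432, minus strand: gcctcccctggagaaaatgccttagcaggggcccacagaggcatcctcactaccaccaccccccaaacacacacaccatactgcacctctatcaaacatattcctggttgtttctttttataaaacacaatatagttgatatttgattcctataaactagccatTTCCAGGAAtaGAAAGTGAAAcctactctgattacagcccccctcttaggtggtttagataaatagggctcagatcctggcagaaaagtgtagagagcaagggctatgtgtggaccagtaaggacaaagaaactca
Gbp2 promoter, chr3:142620413-142620712, plus strand: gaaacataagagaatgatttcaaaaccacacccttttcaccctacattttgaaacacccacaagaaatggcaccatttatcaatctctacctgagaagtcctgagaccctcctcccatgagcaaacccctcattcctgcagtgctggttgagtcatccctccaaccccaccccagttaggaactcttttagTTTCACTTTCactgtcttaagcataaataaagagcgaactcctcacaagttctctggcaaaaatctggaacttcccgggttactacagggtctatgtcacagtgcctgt
Irf1 promoter, chr11:53769764-53770063, plus strand: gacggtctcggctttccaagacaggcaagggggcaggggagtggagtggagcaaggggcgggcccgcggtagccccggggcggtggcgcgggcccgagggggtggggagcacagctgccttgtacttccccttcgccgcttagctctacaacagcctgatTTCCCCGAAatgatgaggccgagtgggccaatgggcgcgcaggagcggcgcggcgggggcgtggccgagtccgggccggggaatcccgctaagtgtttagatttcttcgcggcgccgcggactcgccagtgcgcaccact

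Markers of other cells were followed because the samples were enriched and not sorted. B cell markers, 11 of 11 detected and led by *Ighm*, summed to 325, 321 and 194 CPM in unstimulated a to c and 171, 109.7 and 88.3 CPM in IFN-γ 1 to 3, and none of them was at 0 in all 6 samples. Macrophage and monocyte markers, 14 of 14 detected and led by *Csf1r*, summed to 1147, 1008 and 1139 CPM and 1597, 1532 and 1507 CPM. Neutrophil markers, 10 of 11 detected with *Ltf* at 0 in all 6 samples and *Retnlg* most abundant, summed to 599, 721 and 586 CPM and 717, 681 and 780.2 CPM. *Retnlg*, not called, carries most of that sum, while *Ly6g* (2.27), *S100a8* (2.20) and *Mmp8* (1.94) were called higher and *Cxcr2* lower. Mast cell and basophil markers, 7 of 9 detected with *Fcer1a* and *Mcpt8* at 0 in all, summed to 29.1, 24.7 and 34.3 CPM and 196, 196 and 168 CPM, most of it from *Hdc*, which rose by 3.00 (adjusted p = 1.74e-10). T and NK cell markers, 8 of 13 detected with *Cd8a*, *Ncr1*, *Klrb1c*, *Eomes* and *Gzma* at 0 in all and *Cd3d* most abundant, summed to 16.02, 9.51 and 8.67 CPM and 8.96, 5.64 and 5.89 CPM. Dendritic cell markers, 8 of 8 detected and led by *Batf3*, summed to 42.1, 43.1 and 28.5 CPM and 30.2, 29.7 and 22.9 CPM. The part of these cells in the changes above was not tested. Eosinophil markers, 7 of 7 detected and led by *Alox15*, summed to 4577, 6091 and 4853 CPM and 5159, 4681 and 5789 CPM.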

How the data were processed

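RNA of 12 samples was used: unstimulated a to c, *E. coli*, IFN-γ, and IFN-γ with *E. coli*. The counts per Ensembl gene were deposited by the authors, made according to the submitters' processing notes from CEL-Seq2 reads with fastp 0.20.1, STAR 2.7.2a, TopHat2 2.1.0 and HTSeq 0.6.1 on GRCm38. The 5 HTSeq summary lines were dropped, of which reads on no feature made 20.8% to 37.58% of a sample in the compared groups. No count exceeded 4096, the number of 6-base identifiers. R 4.3.3 with edgeR 4.0.16 (filterByExpr, TMM, 1 coefficient per group, glmQLFTest, Benjamini-Hochberg over all genes tested, called at adjusted p under 0.05) gave all tests, and DESeq2 1.42.0 an alternative. The code was tested on simulated data. Copies were sought with blastn 2.17.0 among GENCODE M21 transcripts at 95% identity over 200 bases. Genes were named from the gene lists and from those that the study itself names for IFN-γ. Others came from the largest rises and falls in fold, with a minimum mean of 10 CPM. The largest gains and losses in level, without that minimum, gave the rest. Members and lists were chosen with earlier results of these data known. The 6 IL-4 set samples were not used here.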

Additional observations from a re-analysis of the deposited data

How the results depend on the processing

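Scaling by library totals gave 970 genes higher and 2448 lower with IFN-γ than without, and 1937 lower with IFN-γ than with *E. coli*. Requiring a 2-fold change as well left 496 higher and 691 lower with IFN-γ, 635 higher and 392 lower than with *E. coli*, and 218 higher and 186 lower with IFN-γ and *E. coli* than with IFN-γ. *Alox15*, not called in the main fit, was lower after correction for the identifier ceiling (log2 fold change -0.37). With the replicate number as a block, a fit chosen after seeing the data that numbers the lettered unstimulated samples 1 to 3 in their order, 1529 genes were higher and 1547 lower with IFN-γ, 1396 and 1115 than with *E. coli*, and 611 and 573 with IFN-γ and *E. coli* than with IFN-γ. The labels do not say whether same-numbered samples were paired. Deviations of same-numbered samples from their group mean correlated at -0.0173, -0.263 and -0.0582 between unstimulated and IFN-γ. The correlations were -0.0022, 0.173 and -0.0163 between *E. coli* and IFN-γ, and -0.045, 0.212 and 0.331 between IFN-γ and both. Not every sample correlated best with its own number. With 3 samples per group such deviations depend on each other, so these correlations cannot decide whether samples were paired. Groups hold 3 samples each, and 1 culture time and 1 dose were measured. Library totals and TMM give different splits of rises and falls, and total RNA per cell was not measured. Genes near the inferred identifier ceiling have uncertain fold changes. Correction for it raised some, such as *Gbp2* (2.43 to 3.61), and lowered others, such as *H2-D1* (0.28 to 0.16) and *Saa3* (0.15 to -0.50). Eosinophils came from *Il5* transgenic mice.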
